A study of Mus musculus with 6 samples.

Results

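Intermediate filaments are the rope-like part of the cytoskeleton, and their genes were followed here in mural cells of the mouse brain, the pericytes and vascular smooth muscle cells that wrap the endothelium. The genes were chosen by name, as Des and 8 other intermediate filament genes (Vim, Gfap, Nes, Synm, Lmna, Lmnb1, Lmnb2 and Krt18), which is 9 of the 33460 genes in the files. All 9 were found by their Ensembl identifiers. Levels are in FPKM, sequenced fragments scaled to transcript length and to library size, and all 9 genes passed the filter on low values, which asked for an FPKM of 1 or more in 3 or more of the 6 libraries.

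RNA was sequenced from 3 libraries of sorted mural cells and 3 libraries of brain microvascular fragments. Both groups came from NG2-DsRed/Pdgfrb-eGFP mice at postnatal day 6 (P6), and the labels give no treatment and no other allele. Mural cells were sorted by FACS as positive for both reporters, eGFP driven by the Pdgfrb promoter (a GENSAT transgene) and DsRed driven by the NG2 promoter. The fragments were pieces of vessel captured with CD31 antibodies on magnetic beads and hold endothelial cells together with their mural cells. The brains of 3 mice were each divided along the midline, with one side used for each preparation, so both groups came from the same animals. The gate required both reporters, and it limits the sorted cells as a model, since some mural cells of arterioles and venules carry little DsRed. Pdgfrb by itself is also active in fibroblasts around larger vessels, which the gate would hold only if they carried DsRed too.

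Intermediate filament proteins share a coiled rod and are grouped by sequence. Type III proteins are desmin of muscle and mural cells, vimentin of mesenchymal, endothelial and many immature cells, and glial fibrillary acidic protein of astrocytes. Type IV members in this set are nestin of progenitor and young cells and synemin, which joins filaments of desmin or vimentin and links them to the dystrophin complex. Lamins line the inside of the nuclear envelope, lamin A/C more strongly in stiff and differentiated cells and lamins B1 and B2 in most cells. Keratin 18 is a keratin of simple epithelia that polymerises with keratin 8. Desmin has long been used as a pericyte marker, and the comparison asked which filament genes differed between the sorted cells and whole vessels.

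The 250 bases before the RefSeq start site are shown for Des and Gfap, both type III genes, since Des had the highest and Gfap the lowest mural-to-fragment ratio of the 3 type III genes. The sequences came from RefSeq (GRCm38.p6) and each matched NCBIM37, the build of the files, at 1 place. The Des window lay at chr1:75356617-75356866 on the + strand, upstream of the annotated gene (chr1:75356904-75365154). The Gfap window lay at chr11:102758515-102758764 on the − strand, upstream of both coding transcripts and within the first intron of a longer transcript in the GENCODE annotation (gene chr11:102748650-102762226). Capitals mark the letters CAGCTG, an E-box.
Des: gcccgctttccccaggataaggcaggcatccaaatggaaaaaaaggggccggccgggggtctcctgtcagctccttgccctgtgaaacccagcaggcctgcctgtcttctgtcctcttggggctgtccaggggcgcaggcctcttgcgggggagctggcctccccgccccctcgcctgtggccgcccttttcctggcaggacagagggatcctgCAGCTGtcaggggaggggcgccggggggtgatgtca
Gfap: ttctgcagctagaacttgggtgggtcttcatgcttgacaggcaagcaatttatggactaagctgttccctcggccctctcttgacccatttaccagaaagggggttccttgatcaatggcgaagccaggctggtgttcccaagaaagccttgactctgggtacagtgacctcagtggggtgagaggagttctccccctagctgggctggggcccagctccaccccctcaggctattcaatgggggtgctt
In all, 4 motifs were searched on both strands, the TATA box, the CCAAT box, this E-box and the CArG box, and none of their matches overlapped another. The Des window held the E-box once, from base 36 to base 31 before the start, and the Gfap window held none of the 4. This E-box stood in 13.0% of 32851 mouse promoter windows of the same length. The Vim window (chr2:13495688-13495937) lay before the RefSeq start but within the annotated gene (chr2:13495554-13504453, + strand). It held the TATA box (TATAAA) from base 32 to base 27, found in 12.37% of windows. It also held the CCAAT box at 2 places, found in 33.85% of windows. The CArG box stood in 1.47% of windows and in none of the 10 windows of the 8 genes with an entry.

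Before the filament genes, the preparations were checked by markers. Pdgfrb and Cspg4, the genes whose promoters drive the reporters, were 9.80-fold and 6.47-fold higher in mural cells, and all 10 mural markers were higher, at ratios of 6.47 to 12.5 (Acta2, smooth muscle actin). All 6 genes of a fibroblast list, which includes collagen genes that mural cells can express as well, were also higher, at ratios of 6.17 (Lum) to 12.9 (Col1a1), with a summed FPKM of 499 to 685 in mural and 56.6 to 61.6 in fragment libraries. Endothelial markers were still high in the sorted cells: 5 of 10 were lower and none higher, at ratios from 0.352 (Ly6c1) to 1.29 (Esam) and a median of 0.728, and their summed FPKM was 2145 to 2475 in fragments and 1591 to 2039 in mural cells. All 8 microglia markers were lower, at ratios of 0.0708 (C1qb) to 0.110 (Itgam). Their summed FPKM was 1564 to 1806 in fragments and 108 to 166 in mural cells, so the fragments also carried microglia RNA. Its part in the ratios of the filament genes was not tested. By an estimate from the FPKM themselves, they rested on 4.22 to 4.65 M sequenced fragments in fragment libraries and on 0.744 to 1.78 M in mural libraries. These are the fragments behind the FPKM, not all reads that the study sequenced. Low values are therefore less precise in mural cells. In such bulk samples, fewer cells of a type and less RNA per cell cannot be told apart.

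Of the 9 filament genes, 3 were higher in mural cells (Des, Lmna and Vim), 1 was lower (Krt18) and 5 did not pass the test (limma on log2(FPKM + 1), two-sided, Benjamini-Hochberg adjusted p under 0.05). Over all 14801 genes tested, 9.34% were called higher and 13.0% lower. Des and Lmna were more than 2-fold higher, a call given to 6.43% of all genes, and Krt18 was more than 2-fold lower, as were 10.1%. The median log2 fold change of the 9 genes was −0.15, against −0.12 over all genes tested. Quantile normalization moved that overall median up by 0.13 and gave 1626 genes higher and 1533 lower, and it left the 9 signs and the calls of the filament genes as they were.

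**Figure D1:**
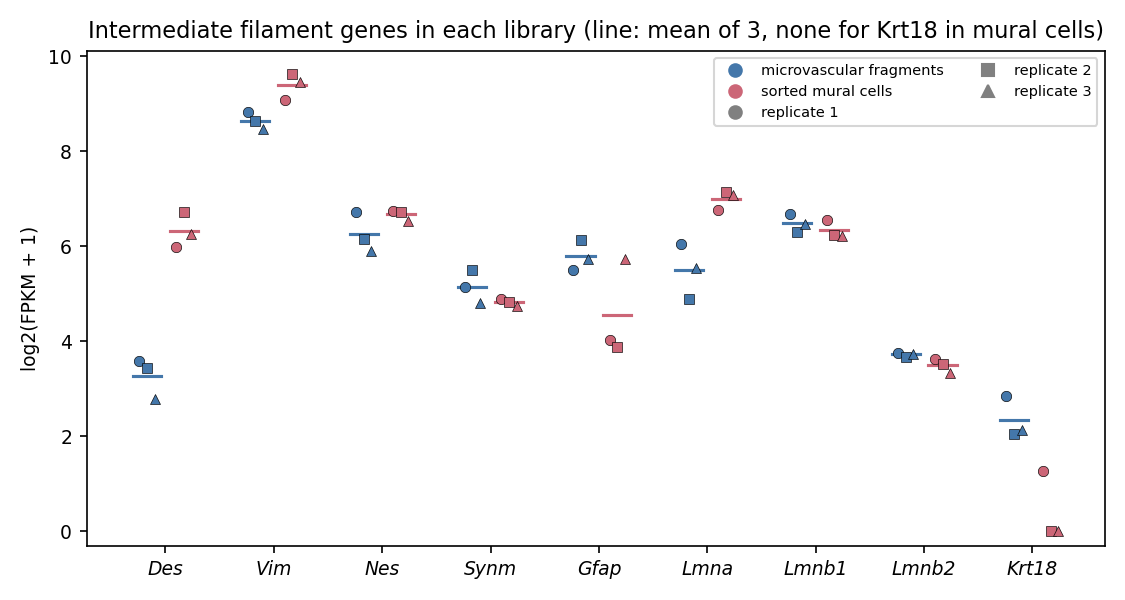
Level of each filament gene in each library, as log2(FPKM + 1) on the vertical axis, with fragments in blue, mural cells in red, a marker shape for each replicate number and lines for group means. Des, Vim and Lmna lie higher in all 3 mural libraries, and Gfap is spread widely in mural cells.

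Desmin, the type III filament of muscle, showed the highest ratio of the set. Des (ENSMUSG00000026208) had an FPKM of 11.0, 9.86 and 5.93 in fragment libraries 1 to 3. In mural libraries 1 to 3 it had 62.8, 104 and 75.8. The lowest mural library was thus well above the highest fragment library. Fragments averaged 8.92 ± 2.65 (SD, n = 3) and sorted cells 81.0 ± 21.3 (SD, n = 3), which is 9.08-fold higher, with a log2 fold change of 3.05 (SE 0.27, limma adjusted p = 3.46e-04). Its level moved from above 40.0% of the tested genes in fragments to above 93.5% in mural cells. The call held in all 15 alternative settings.

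Set against mural markers, Des did not stand apart. Per 100 FPKM of Pdgfrb, Des had 17.1 to 21.1 FPKM in fragment libraries and 13.6, 22.0 and 18.9 in mural libraries. The groups overlapped. The same held against the summed FPKM of the 10 mural markers, with 1.61 to 1.97 per 100 in fragments and 1.63 to 2.16 in mural cells. The genes of the fibroblast list, whose ratios are given above, moved with Des, and the part of fibroblast RNA in the result was not tested.

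The genes with the profile most like Des were found over the 6 libraries, as the smallest root mean square difference of log2(FPKM + 1) after centring each gene. They were Rarres2 (0.106), which encodes the chemoattractant chemerin, Gucy1b3 (0.108), a subunit of the soluble guanylate cyclase that senses nitric oxide, Tbx2 (0.141), a T-box transcription factor, Ccdc80 (0.156), a secreted matrix protein, and Adamts14 (0.159), a procollagen protease. Their ratios of mean FPKM ran from 8.60 to 13.6. Of the mural markers Notch3 was the nearest, at place 11, and of the other genes of the set Lmna, at place 566. Since the likeness rests on 6 libraries in 2 groups, it follows mainly the difference between the groups.

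Vimentin, the type III filament of mesenchymal and endothelial cells, was the most abundant filament gene in every library. Vim (ENSMUSG00000026728) had an FPKM of 454, 396 and 355 in fragment libraries and 538, 794 and 707 in mural libraries. All mural values were above all fragment values. Fragments averaged 402 ± 49.5 (SD, n = 3) and sorted cells 680 ± 130 (SD, n = 3), which is 1.69-fold higher, with a log2 fold change of 0.75 (SE 0.18, limma adjusted p = 0.0219). The call was lost without fragment library 2 (adjusted p = 0.0836), fragment library 3 (0.0825), mural library 2 (0.0579) or mural library 3 (0.0609), and with no filter on low values (0.0515). Endothelial cells and fibroblasts also express Vim, and the part of their RNA in this difference was not tested.

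The mix of type III filaments differed between the preparations. Per 100 FPKM of Vim, Des had 2.42, 2.49 and 1.67 FPKM in fragments and 11.7, 13.1 and 10.7 in mural cells. These ranges did not overlap. Against the summed mural markers, Vim went the other way, with 74.4 to 96.8 FPKM per 100 in fragments and 14.0 to 18.2 in mural cells. The ratios within libraries are described here and were not tested.

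**Figure D2:**
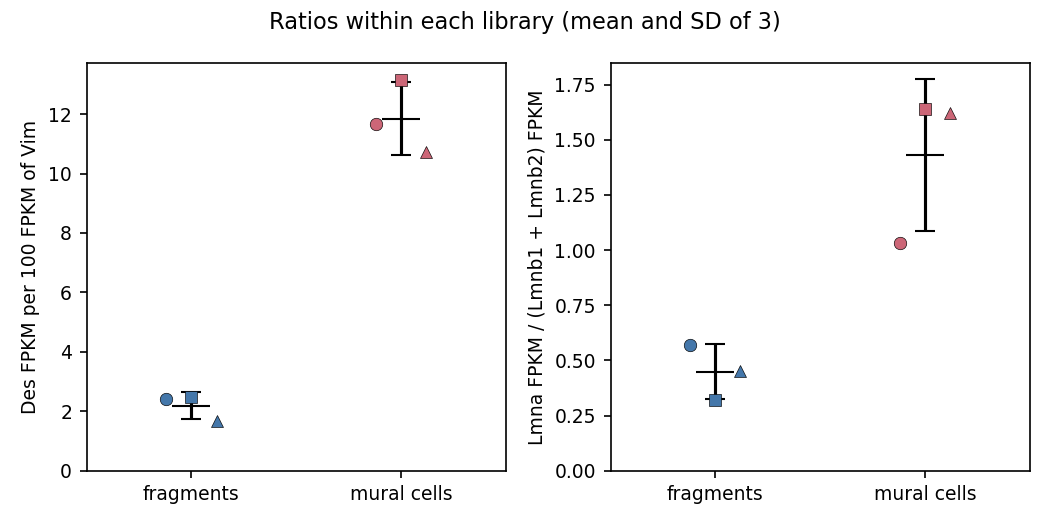
Ratios of FPKM within each library: Des per 100 FPKM of Vim on the left, Lmna over the sum of Lmnb1 and Lmnb2 on the right, with points for libraries and bars for the mean and SD of 3. Both ratios are higher in all 3 mural libraries than in any fragment library.

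Glial fibrillary acidic protein, the type III filament of astrocytes, varied more among mural libraries than any other gene of the set but Krt18. Gfap (ENSMUSG00000020932) had an FPKM of 44.6, 69.1 and 52.1 in fragment libraries and 15.2, 13.8 and 52.4 in mural libraries. Mural library 3 lay within the range of the fragments, and the other 2 mural libraries lay below it. The ratio of means was 0.491, and the log2 fold change of −1.24 (SE 0.48) did not pass the test (limma adjusted p = 0.108). Without mural library 3 the ratio was 0.262 and Gfap passed (limma adjusted p = 0.00222).

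Of 10 astrocyte markers, 8 were highest of all 6 libraries in mural library 3, and Gjb6 and S100b were the lowest of the 3 mural libraries there. The summed FPKM of the 10 was 313, 410 and 336 in fragments, 430 and 355 in mural libraries 1 and 2, and 977 in mural library 3. Much of the sum in mural libraries 1 and 2 was Atp1b2, a sodium pump subunit, with 177 and 141. Without Atp1b2 the sum was 270, 367 and 299 in fragments and 253, 214 and 759 in mural cells, so that mural libraries 1 and 2 then lay below every fragment library and mural library 3 above. In mural library 3, Slc1a2, a glutamate transporter of astrocytes, had an FPKM of 236, against 50.6 and 39.3 in the other 2 mural libraries. Only Atp1b2 passed the test among the 10 markers (ratio 4.36), with all others between 0.357 (Gjb6) and 2.00 (Fgfr3). The paper lists both Atp1b2 and Fgfr3 in its catalogue of mural cell-enriched genes, so neither can be read as an astrocyte marker alone here. Fgfr3 remained in the sum without Atp1b2. Per 100 FPKM of the 9 markers without Atp1b2, Gfap had 16.5 to 18.8 in fragments and 6.02 to 6.90 in mural cells, and per 100 FPKM of all 10 it had 14.2 to 16.9 and 3.54 to 5.36. The part of astrocyte RNA in the Gfap values was not tested.

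**Figure D3:**
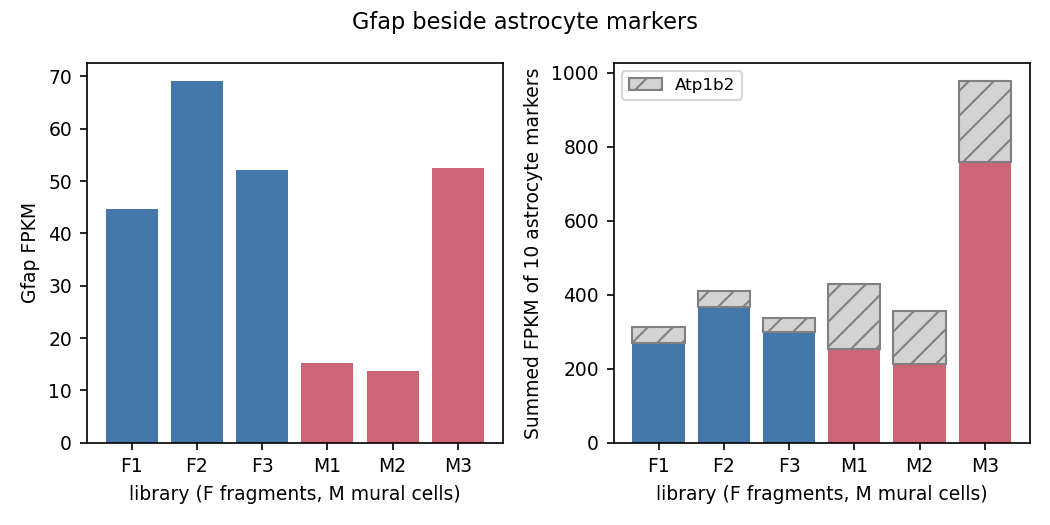
Gfap FPKM (left) and the summed FPKM of 10 astrocyte markers (right, with Atp1b2 hatched), with a bar for each library. Mural library 3 reaches 52.4 for Gfap and 977 for the markers, above the other 2 mural libraries in both.

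The type IV genes did not pass the test. Nes (ENSMUSG00000004891), which encodes nestin of progenitor and young cells, had an FPKM of 104, 70.7 and 59.0 in fragments and 107, 105 and 91.6 in mural cells. The groups overlapped through fragment library 1. The log2 fold change was 0.41 (SE 0.21, limma adjusted p = 0.204) at a ratio of 1.30, and without fragment library 1 it was 0.64 (limma adjusted p = 0.0417). Synm (ENSMUSG00000030554), for the linker synemin, had 34.4, 44.4 and 27.0 in fragments and 28.7, 27.6 and 25.8 in mural cells. Its log2 fold change was −0.33 (SE 0.19, limma adjusted p = 0.268). Des therefore stood at 0.220 to 0.319 FPKM per FPKM of Synm in fragments and at 2.19 to 3.79 in mural cells, ranges that did not overlap.

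Among the lamins, Lmna was higher and neither B-type gene passed the test. Lmna (ENSMUSG00000028063), for lamins A and C of the nuclear envelope, had an FPKM of 65.0, 28.7 and 45.5 in fragments and 108, 139 and 133 in mural cells. All mural values were above all fragment values. Fragments averaged 46.4 ± 18.2 (SD, n = 3) and sorted cells 127 ± 16.9 (SD, n = 3), which is 2.73-fold higher, with a log2 fold change of 1.5 (SE 0.28, limma adjusted p = 0.00853), and the call held in all 15 alternative settings. Values were given per gene, so lamin A and lamin C transcripts could not be separated.

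Lmnb1 (ENSMUSG00000024590), for lamin B1, had 101, 77.5 and 88.2 in fragments and 92.7, 74.6 and 73.1 in mural cells, with a log2 fold change of −0.15 (SE 0.15, limma adjusted p = 0.524). The groups overlapped. Lmnb2 (ENSMUSG00000062075), for lamin B2, had 12.6, 11.8 and 12.4 in fragments and 11.3, 10.5 and 9.14 in mural cells. All mural values were lower, yet the log2 fold change of −0.23 (SE 0.18) did not pass (limma adjusted p = 0.401). Lmna per FPKM of both B-type lamins was 0.448 ± 0.125 (SD, n = 3) in fragments and 1.43 ± 0.344 (SD, n = 3) in mural cells. As a share of the summed lamin FPKM, Lmna made up 36.3, 24.3 and 31.2% in fragment libraries and 50.8, 62.1 and 61.8% in mural libraries, which did not overlap.

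Keratin 18 had the lowest mean level of the 9 genes in both groups. Krt18 (ENSMUSG00000023043) had an FPKM of 6.18, 3.14 and 3.40 in fragments and 1.41 in mural library 1, and was listed at 0 in mural libraries 2 and 3. These values stood for 34, 16 and 19 sequenced fragments against 3, 0 and 0. Pooled, this was 69 sequenced fragments of 13.4 M against 3 of 3.31 M, a rate ratio of 0.176 (95% exact interval 0.0355 to 0.537, for counting error only). The log2 fold change was −1.92 (SE 0.44, limma adjusted p = 0.0198). The call was lost without fragment library 1 (adjusted p = 0.0789), 2 (0.0534) or 3 (0.0613). Krt8, for its partner keratin 8, had 3.27, 1.32 and 0.803 in fragments, was listed at 0 in all 3 mural libraries and was not tested.

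**Figure D4:**
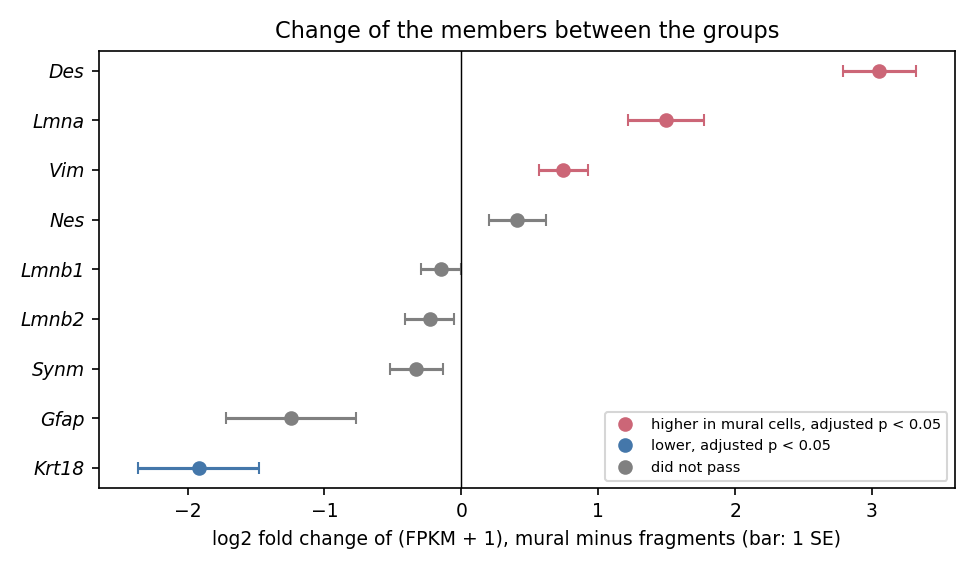
Log2 fold change of each filament gene, mural minus fragments, on log2(FPKM + 1), with bars of 1 SE and colours for the outcome of the test. Des has the highest change, at 3.05, and Krt18 the lowest, at −1.92.

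By order of mean FPKM, fragments ran Vim, Lmnb1, Nes, Gfap, Lmna, Synm, Lmnb2, Des and Krt18, and mural cells ran Vim, Lmna, Nes, Des, Lmnb1, Synm, Gfap, Lmnb2 and Krt18. In mural cells, the libraries of these neighbours did not overlap for Vim with Lmna, Lmna with Nes, Lmnb1 with Synm, Gfap with Lmnb2 or Lmnb2 with Krt18, and they overlapped for Nes with Des, Des with Lmnb1 and Synm with Gfap. In fragments they did not overlap for Vim with Lmnb1, Synm with Lmnb2 or Lmnb2 with Des, and the other neighbours overlapped. Vim made up 54.5 to 55.7% of the summed FPKM of the 9 genes in fragments and 55.8 to 62.5% in mural cells, and Des 0.913 to 1.39% and 6.49 to 8.22%. The sum was 649 to 833 in fragments and 965 to 1270 in mural cells.

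**Figure D5:**
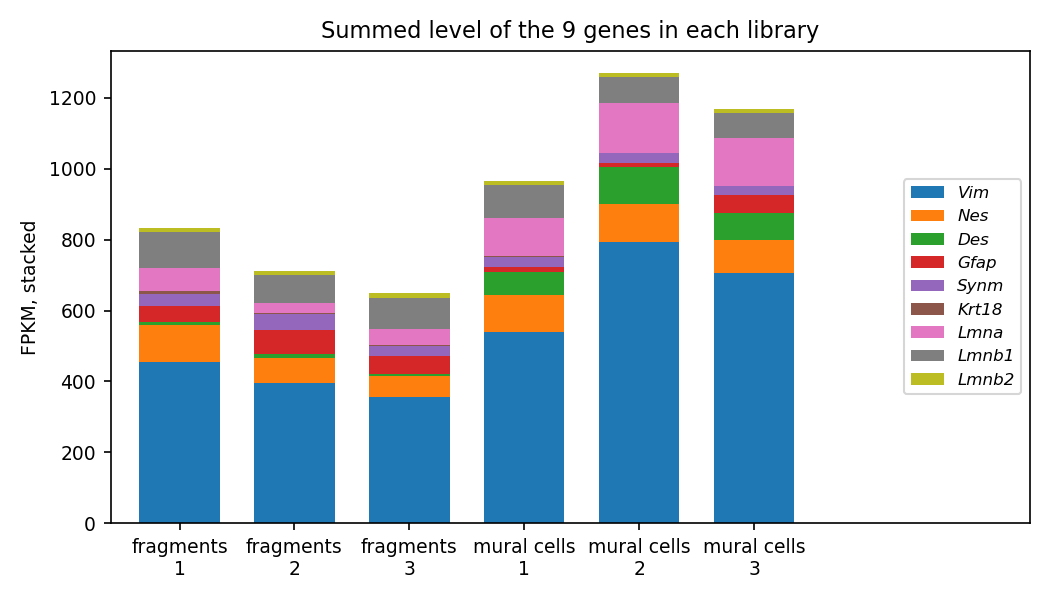
FPKM of the 9 filament genes stacked for each library, with a colour for each gene. The mural bars reach 965 to 1270 and the fragment bars 649 to 833, with Vim as the main part of each.

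Most other intermediate filament genes were at low levels. Of 26 more (neurofilaments, keratins, lens filaments and others), 9 were listed at 0 in all libraries and 16, those included, stayed below an FPKM of 1 throughout. Of the 5 tested, none passed, with a median log2 fold change of −0.52. Krt222, a keratin gene, had an FPKM of 3.91, 8.18 and 5.21 in fragments and 2.44, 0.468 and 11.2 in mural cells (limma adjusted p = 0.522), and its mean was above that of Krt18 in both groups. At the ends of the range of ratios were Nefl, a neurofilament gene, at a ratio of 0.240 (limma adjusted p = 0.0735), and Bfsp1, a lens filament gene, at 3.78 (limma adjusted p = 0.0796, and 0.0197 after quantile normalization).

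Genes for proteins that bind or fold filaments were read as lists, and no list was tested as a set. For comparison, 9.34% of all 14801 genes tested were called higher and 13.0% lower. Of 7 chaperones of desmin and vimentin, 2 were higher and none lower (median log2 fold change 0.14). Cryab, for the small heat shock protein αB-crystallin, had an FPKM of 10.2, 14.4 and 7.78 in fragments and 94.4, 69.9 and 92.9 in mural cells, a ratio of 7.94. Hspb2, a small heat shock protein gene that neighbours Cryab, had 0.339, 0.366 and 0.335 in fragments and 3.55, 10.5 and 9.93 in mural cells. Both were higher in every mural library. At the depth of these libraries, 1 sequenced fragment per kilobase stood for an FPKM of 0.215 to 0.237 in fragment libraries. In mural libraries it stood for 0.563 to 1.34. Hspb2 therefore rests on few sequenced fragments in both groups, and its small spread in fragments lies near the floor.

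Of 6 cytolinkers and desmosomal anchors tested, 2 were lower and none higher (median −0.15). Macf1, which joins microtubules and actin, had a ratio of 0.745, and Pkp4, a junction plaque protein, 0.478. Plec, for plectin, the main linker of filaments to other structures, had 66.5 to 77.4 in fragments and 58.8 to 81.7 in mural cells and did not pass (limma adjusted p = 0.728). Of 10 genes of the dystrophin complex that synemin binds, 4 were higher and none lower (median 0.40). These were Dmd, for dystrophin (ratio 7.36), Sntb1, for a syntrophin (4.73), Dag1, for dystroglycan (2.47), and Sgce, for a sarcoglycan (1.83). The ratios of Dmd and Cryab lay within the range of the mural markers, 6.47 to 12.5. The paper lists both genes in its catalogue of mural cell-enriched genes.

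Of 16 lamin partners and processing genes tested, 1 was higher and none lower (median −0.0076). It was Banf1, for a protein that bridges chromatin and the nuclear envelope, at a ratio of 1.48 (limma adjusted p = 0.0495). After quantile normalization Banf1 no longer passed (limma adjusted p = 0.0758), and Tor1aip1, a torsin partner that binds lamins, passed as lower (limma adjusted p = 0.0496). Zmpste24, for the protease that matures prelamin A, had a ratio of 0.881 (log2 fold change −0.19, SE 0.17), and Emd, for emerin, which binds lamin A, 1.42 (limma adjusted p = 0.106).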

How the data were processed

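The authors sequenced ribosome-depleted stranded libraries (paired ends, 1 lane), aligned them to NCBIM37 with TopHat2 2.0.4, removed duplicates with Picard 1.92 and deposited FPKM per Ensembl gene from Cufflinks 2.2.1. Whether counting used strand is not given in the sources used here. The antisense gene overlapping Des (Gm15179) was at 0 in all libraries. An antisense gene also overlaps Gfap (Gm17536), but it had no values in the data, so its part in the Gfap level is not known. Of 33460 genes, 14801 had an FPKM of at least 1 in 3 libraries and were tested with limma 3.58.1 (R 4.3.3) on log2(FPKM + 1) with an intensity trend, without a block. Fold changes on this scale understate low genes. Fragments per gene were recovered from the smallest steps of single-transcript genes (97.7 to 98.3% of low values whole within 0.05) and are exact only for Krt18. The genes and lists were chosen with earlier results of these data known. Named genes were the members, at most 4 extremes of each list, the reporter genes and the 5 profiles nearest Des. Krt8, Notch3, Slc1a2, Fgfr3, S100b, Slco1c1, Cspg5, Plec, Krt222, Tor1aip1, Zmpste24, Emd, Nefl and Bfsp1 were added after their values were seen. Alternatives were the pseudocount, filter, scaling, trend, threshold, replicate block and leaving out each library.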

Additional observations from a re-analysis of the deposited data

How the results depend on the processing

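Of 134 values of the 9 genes under 15 alternatives, 122 kept their side of the threshold, 10 lost a call, 2 gained one and none changed sign. Members higher ranged from 2 to 4, and members more than 2-fold higher were 2 throughout. Members lower were 0 with a filter at an FPKM of 5 (Krt18 was then not tested) and 0 at an adjusted p under 0.01. Leaving out 1 library gave 0 to 2 members lower and 0 to 2 more than 2-fold lower, 885 to 1369 genes higher, 1121 to 2144 lower and 988 to 1751 with a ratio under 0.5. At an adjusted p under 0.01 there were 769 genes higher, 909 lower and 845 with a ratio under 0.5, and the filter at 5 left 948 of the last kind. Vim and Krt18 did not pass at 0.01. Quantile normalization changed the calls of Bfsp1, Banf1, Tor1aip1 and Slco1c1 (an endothelial marker) among the listed genes, and median-ratio scaling changed none. Krt18 fell by 4.07 on the log2 scale with a pseudocount of 0.1. Leaving out genes at 0 in every library of a group was chosen after seeing the data, as was the astrocyte sum without Atp1b2. The cause of these changes was not tested. The labels do not say that a replicate number marks an animal, so the numbers were not taken as pairs. Deviations of same-numbered libraries from their group means correlated at 0.082, 0.02 and 0.045. These values cannot decide the pairing, since libraries of different number were not compared. With the replicate block, 3 members were higher and 1 lower, 2 were more than 2-fold higher and 1 more than 2-fold lower, with 1206 genes higher and 1651 lower, and Vim had an adjusted p of 0.0453. Depth limits Krt18 and other low genes in mural cells. No label ties a library to an animal, so p-values measure only the spread between these samples.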

Other observations

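Markers of other cells gave further values for the same libraries. Of 8 proliferation genes, 2 were lower in mural cells and none higher, Mki67 at a ratio of 0.629 and Top2a, a topoisomerase of dividing cells, at 0.632. Of 6 oligodendrocyte progenitor markers, only Pdgfra passed, higher at a ratio of 1.59, and of 6 neural progenitor markers only Notch1, at 1.43. Of 6 neuron markers tested, Stmn2, a tubulin-binding protein of growing neurons, was lower at 0.511 and the others did not pass. The paper lists Stmn2 in its catalogue of mural cell-enriched genes, although it was lower in the mural cells here. Stmn2 therefore cannot be read as a neuron marker alone. The summed FPKM of the oligodendrocyte progenitor markers was 36.0 to 46.0 in fragments and 34.3 to 88.0 in mural cells. It was highest in mural library 3, the library that was also high in astrocyte markers. Cspg5 had the largest part in this, with 11.8, 5.13 and 38.4 in mural libraries 1 to 3. Sox10 went the other way, at 3.13, 2.87 and 1.09. The other markers of this list were highest in mural library 3 among the mural libraries, though Pdgfra differed little (11.9, 12.9 and 13.2).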
